A study of Mus musculus with 64 samples.

Results

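The genes described here are 10 liver genes for serum amyloid A and other acute-phase plasma proteins, namely Saa1, Saa2, Saa3, Saa4, Orm1, Orm2, Lcn2, Hp, Lbp and Itih4. They were selected on measured values of this study, namely their levels in single libraries and their difference between the treatments, and were taken by symbol from a table of 55487 genes, of which 23436 had at least 1 UMI (unique molecular identifier, 1 counted transcript molecule). All 10 passed the filter on low counts, which left 10097 genes. The livers came from C57BL/6J males that had free access to food and were taken 4 weeks after they received AAV8, a viral vector. In the group called sh-Acsf3 it carried a short hairpin RNA that lowers Acsf3 in the liver, and the group called sh-Ctl received the control vector, so uninjected mice were not analysed here. Each treatment had 4 libraries at each of 8 zeitgeber times (ZT, hours after lights on) from ZT0 to ZT21, 3 h apart, which gives 16 groups and 64 libraries. The labels do not say whether replicates are separate mice, so the p values measure only the spread between these libraries.

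The acute-phase response is the change in the plasma proteins that the liver secretes during infection, injury or other inflammation. Cytokines such as interleukin 6 and interleukin 1 act on hepatocytes through STAT3, NF-kB and the C/EBP factors, and raise the transcription of a set of secreted proteins. In mouse liver Saa1 and Saa2 are the classic strongly inducible members, whereas Hp is made at a high level at all times and rises less. Some of these genes are also expressed outside hepatocytes: Saa3 in macrophages and fat, and Lcn2 in neutrophils.

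Totals were 1.48 M to 6.06 M UMIs per sh-Ctl library (median 3.13 M) and 0.839 M to 9.35 M per sh-Acsf3 library (median 2.03 M). Levels are in CPM, counts scaled to a common total of tested genes with the TMM factors of edgeR, and are not compared between genes unless stated. The median of the target gene Acsf3 was 11.1 CPM under sh-Ctl against 2.49 CPM under sh-Acsf3, a difference of -2.23 ± 0.13 (log2, SE). Replicate 1 at ZT12 and at ZT21 of sh-Acsf3, at 6.399 and 7.31 CPM, lay inside the sh-Ctl range. The 10 hepatocyte markers summed to 75197 CPM or more in every library. Enzyme genes of the exocrine pancreas passed a sum of 100 CPM in 8 libraries, of which 6 were sh-Acsf3. Libraries were numbered treatment by treatment and no preparation batch is named, so treatment and any such batch cannot be told apart.

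4 sh-Ctl libraries stood apart from the other 60 in Saa1. The level was 3604 CPM in replicate 1 at ZT9, 4204 in replicate 2 at ZT12, 2092 in replicate 2 at ZT15 and 2259 in replicate 2 at ZT18. These lie over a limit of 1000 CPM that was set with the values known, and they are called the Saa1-high libraries below. The lowest of them was at 2092 CPM, and the highest under the limit was a sh-Ctl library at 250.9 CPM, followed by a sh-Acsf3 library at 246.9 CPM. Their totals of 2.81 M to 3.45 M UMIs lay inside the range of the other sh-Ctl libraries. Their Acsf3 level of 8.85 to 14.7 CPM lay inside the sh-Ctl range of 6.32 to 18.0. Each of the 4 times has 1 such library and 3 others, and ZT0, ZT3, ZT6 and ZT21 have none. Results that rest on them are given with and without them.

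The 4 Saa genes lie together on chromosome 7 of GRCm38, the build named in the submitters' processing notes. Per GENCODE M21, Saa3 (ENSMUSG00000040026) spans 46711998 to 46715700, Saa4 (ENSMUSG00000040017) spans 46727998 to 46732603 and Saa1 (ENSMUSG00000074115) spans 46740497 to 46742980, each on the minus strand. Saa2 (ENSMUSG00000057465) spans 46751790 to 46754313 on the plus strand. The coding transcripts of Saa1 and Saa4 have 4 exons each. Orm1 (ENSMUSG00000039196, 63344560 to 63348163) and Orm2 (ENSMUSG00000061540, 63362449 to 63365878) are neighbours on the plus strand of chromosome 4, with 6 exons each. Lcn2 (ENSMUSG00000026822, 32384633 to 32388252, minus strand) and Lbp (ENSMUSG00000016024, 158306493 to 158332852, plus strand) lie on chromosome 2. Hp (ENSMUSG00000031722) lies on chromosome 8 from 109575128 to 109579172, minus strand, and Itih4 (ENSMUSG00000021922) on chromosome 14 from 30886476 to 30902353, plus strand. None of the 10 overlaps another annotated gene.

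Counts of near-identical genes are uncertain. The longest coding transcripts of Saa1 and Saa2 share 572 of 606 aligned bases (94.4%), and their last 200 bases, the part that 3' counting reads, share 183 of 197 (92.9%). Orm1 and Orm2 share 705 of 775 bases (91%), and 194 of 200 in the last 200 bases. How the authors' counting split reads between such copies is not given in the sources used here, so the levels within each pair may include reads of the other.

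The bases just before the start site are shown for the 5 genes whose level differed most between the Saa1-high and the other sh-Ctl libraries. Each run is the 250 bases before the RefSeq start, 5' to 3' on the gene's strand, in GRCm38.p6. The windows are chr7:46742981-46743230 (minus) for Saa1, chr7:46751583-46751832 (plus) for Saa2, chr7:46715677-46715926 (minus) for Saa3, chr4:63362199-63362448 (plus) for Orm2 and chr2:32387740-32387989 (minus) for Lcn2. Capitals mark matches to TTNNGNAA on either strand, a loose form of the site that C/EBP factors bind.
Saa1: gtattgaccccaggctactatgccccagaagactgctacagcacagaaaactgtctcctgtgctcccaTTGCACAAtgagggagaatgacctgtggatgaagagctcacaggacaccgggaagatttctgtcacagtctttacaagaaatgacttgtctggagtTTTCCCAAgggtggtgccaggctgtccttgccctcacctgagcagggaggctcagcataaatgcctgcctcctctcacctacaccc
Saa2: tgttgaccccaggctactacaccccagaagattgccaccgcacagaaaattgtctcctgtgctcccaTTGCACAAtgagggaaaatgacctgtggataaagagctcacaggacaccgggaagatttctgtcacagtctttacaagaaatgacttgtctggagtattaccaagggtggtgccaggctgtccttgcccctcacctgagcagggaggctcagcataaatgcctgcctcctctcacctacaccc
Saa3: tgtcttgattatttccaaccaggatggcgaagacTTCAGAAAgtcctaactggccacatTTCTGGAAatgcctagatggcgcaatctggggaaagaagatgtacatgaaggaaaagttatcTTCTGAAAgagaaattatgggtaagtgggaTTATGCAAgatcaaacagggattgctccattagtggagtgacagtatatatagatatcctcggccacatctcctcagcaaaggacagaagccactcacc
Orm2: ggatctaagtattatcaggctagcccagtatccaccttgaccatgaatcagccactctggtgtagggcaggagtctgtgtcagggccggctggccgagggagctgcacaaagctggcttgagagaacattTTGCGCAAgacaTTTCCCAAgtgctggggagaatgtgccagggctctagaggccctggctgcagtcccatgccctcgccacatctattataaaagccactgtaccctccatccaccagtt
Lcn2: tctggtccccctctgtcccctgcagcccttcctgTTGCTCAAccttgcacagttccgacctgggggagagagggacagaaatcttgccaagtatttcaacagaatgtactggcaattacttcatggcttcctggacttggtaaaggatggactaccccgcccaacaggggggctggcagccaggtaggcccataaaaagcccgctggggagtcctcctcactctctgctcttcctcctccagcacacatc
The Saa1 and Saa2 windows share 238 of 249 aligned bases (95.6%), and both hold the same match that starts 182 and 183 bases before the start. Saa3 has 4 matches, Saa1 and Orm2 have 2 each, and Saa2 and Lcn2 have 1 each. RefSeq's table held a window for 7 of the 10 genes, and 6 of these 7 have a match, against 36.9% of all 32851 windows. The form TTCNNNGAA, which STAT factors bind, was found in Itih4 alone among the 7 on either strand, against 7.02% of all windows. A narrow NF-kB form, with most of its bases fixed, was found in none of the 7, against 4.11% of all windows. Looser forms of the NF-kB site were not searched, so this does not show that the windows lack such a site. A match is a run of letters, not a measured binding site.

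In the Saa1-high libraries the other acute-phase genes were high too. 9 of the 10 genes, Saa1 included, lay above all 28 other sh-Ctl libraries in each of the 4, and Lbp did not. Over all tested genes, 48 of 10097 (0.475%) lay above in this way and 4 (0.0396%) lay below. The split was made on Saa1, so these values are a description and carry no test.

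Saa2, whose protein is carried on high-density lipoprotein like that of Saa1, was at 1362 CPM in the ZT9 library, 1481 at ZT12, 533 at ZT15 and 754 at ZT18. The other 28 sh-Ctl libraries ran from 3.34 to 62.9 CPM with a median of 8.01, so the 4 were 66.5 to 185 times that median. Saa1 itself was 51.1 to 103 times its median of 41.0 CPM. Within each gene the ZT12 library was the highest and the ZT15 library the lowest.

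Saa3, the form made also outside hepatocytes, was at 338, 834, 901 and 1250.1 CPM in the ZT9, ZT12, ZT15 and ZT18 libraries. The other sh-Ctl libraries ran from 11.4 to 42.3 CPM with a median of 23.9. Its order over the 4 libraries differed from that of Saa1, with the ZT9 library the lowest of the 4 and the ZT18 library the highest. Saa4, the constitutive form, was at 262, 229, 279 and 298 CPM in the same order. The other sh-Ctl libraries ran from 54.6 to 172 CPM with a median of 93.5, so Saa4 was 2.45 to 3.19 times its median where Saa3 was 14.1 to 52.2 times its own.

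The orosomucoid genes encode alpha-1-acid glycoproteins, abundant plasma proteins that bind drugs and lipids. Orm2 was at 786, 2334, 1451 and 2309 CPM in the ZT9, ZT12, ZT15 and ZT18 libraries, against 6.01 to 186 with a median of 12.7 in the other sh-Ctl libraries. Its levels were 61.8 to 184 times that median. Orm1 was at 1642, 2419, 1866 and 2206 CPM, against 413 to 808 with a median of 558, or 2.94 to 4.33 times. The fold over the other libraries was thus far larger for Orm2 than for its neighbour Orm1, with the reservation on shared reads given above.

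Lcn2 encodes lipocalin 2, which binds bacterial siderophores and so withholds iron. It was at 96.8, 177, 77.9 and 81.7 CPM in the ZT9, ZT12, ZT15 and ZT18 libraries, where it rested on 218 to 577 UMIs per library. The other sh-Ctl libraries ran from 0.291 to 7.48 CPM with a median of 2.31 and held 1 to 31 UMIs each. The 4 were 33.7 to 76.5 times that median.

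Hp encodes haptoglobin, which binds free haemoglobin, and was at 5093, 6941, 4769 and 4352 CPM in the 4 libraries. The others ran from 1021 to 2120 CPM with a median of 1430.5. Itih4, an inter-alpha-trypsin inhibitor heavy chain, was at 2753, 4141, 2979 and 2362 CPM, against 757 to 1303 with a median of 917. These genes were 3.04 to 4.85 and 2.58 to 4.52 times their medians.

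Lbp encodes the protein that carries bacterial lipopolysaccharide to CD14. It was at 168, 135, 74.3 and 49.3 CPM in the ZT9, ZT12, ZT15 and ZT18 libraries, against 44.7 to 96.8 with a median of 61.1 in the other sh-Ctl libraries. Only the ZT9 and ZT12 libraries lay above all others. Lbp was thus lowest in the ZT18 library, where Saa3 was highest, and highest in the ZT9 library, where Saa3 was lowest. Each time holds a single Saa1-high library, so time and library cannot be told apart.

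**Figure D1:**
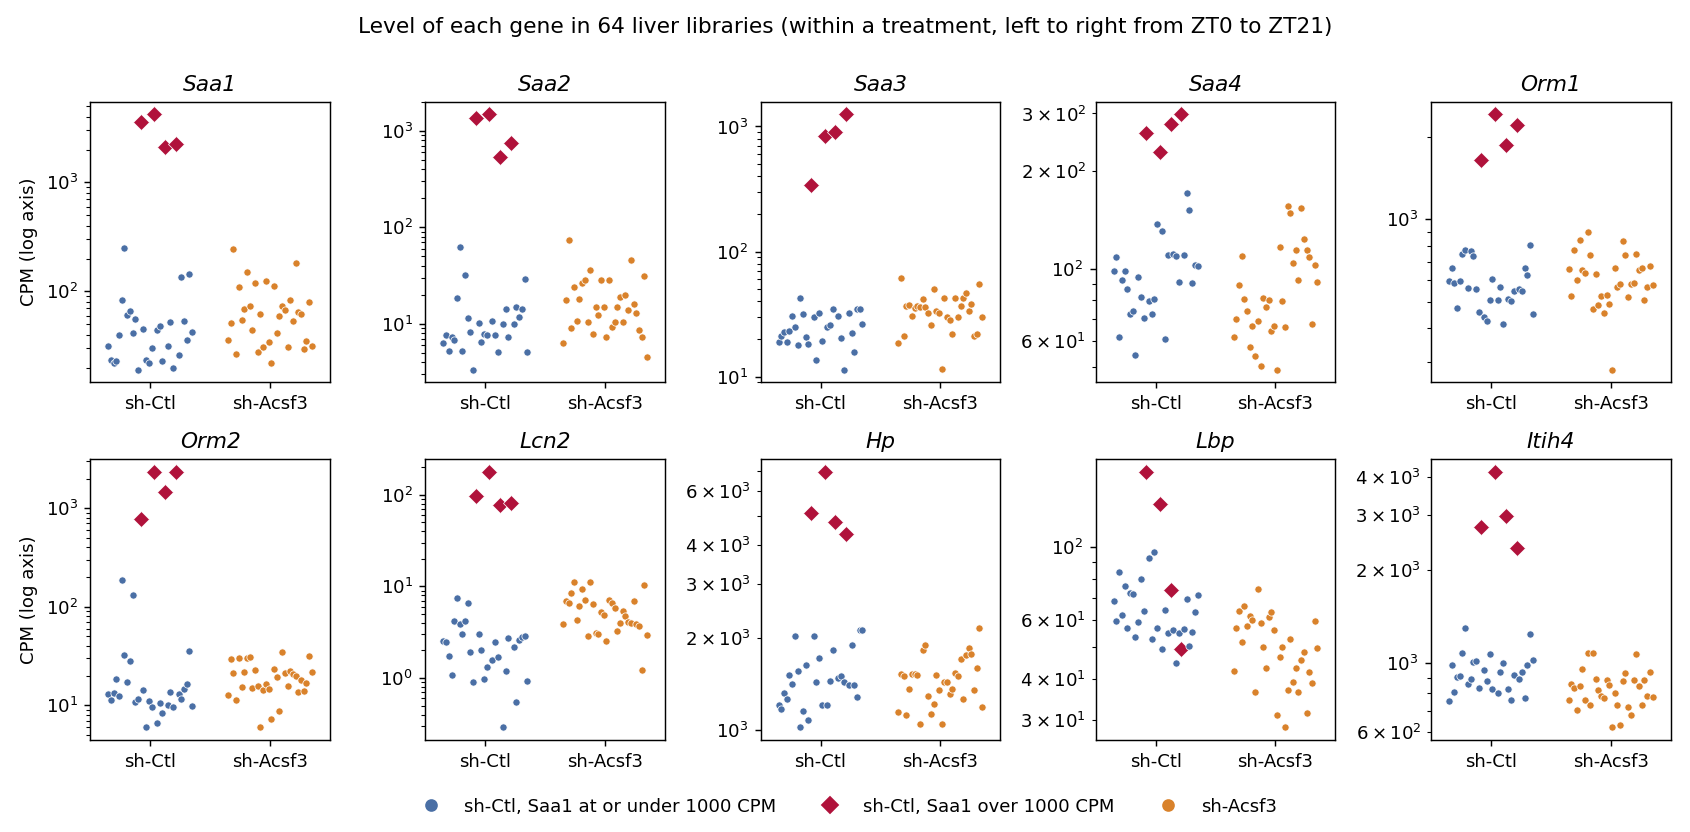
Level of each of the 10 genes (CPM, log axis) in the 32 sh-Ctl and 32 sh-Acsf3 libraries, ordered within a treatment from ZT0 to ZT21, with the 4 Saa1-high libraries as red diamonds. The diamonds lie above all other libraries for 9 genes, and for Lbp they spread from 168 down to 49.3 CPM.

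**Figure D2:**
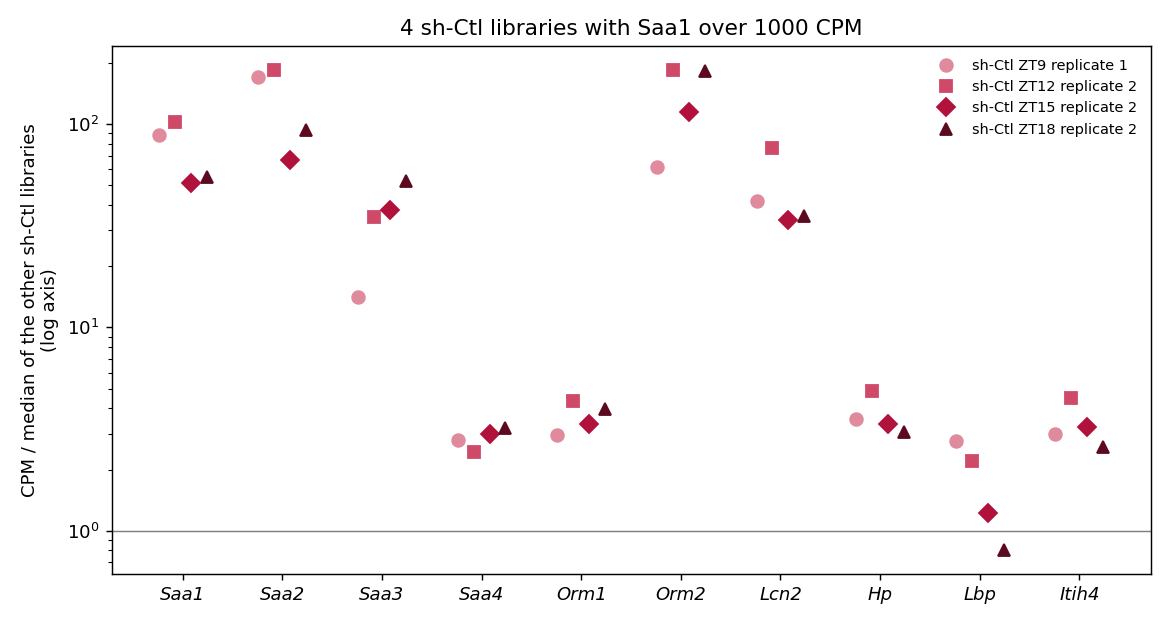
CPM in each Saa1-high library divided by the median of the other 28 sh-Ctl libraries (log axis), per gene. Saa1, Saa2, Saa3, Orm2 and Lcn2 lie between 14.1 and 185, and Saa4, Orm1, Hp, Lbp and Itih4 between 0.807 and 4.85.

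Marker genes of the tissue and of other cells were read in the same libraries. The hepatocyte sum was 75197 to 124125 CPM in the Saa1-high libraries and 107503 to 149133 in the other sh-Ctl libraries. The largest part of it was albumin (Alb), whose synthesis falls in the acute-phase response. Alb was at 33892 to 79676 CPM in the Saa1-high libraries, against a median of 82822 in the others. The sum thus does not measure hepatocytes alone. Fabp1 was at 3828 to 5976 CPM against a median of 6475, and Tat at 670 to 911 against 609. The 13 neutrophil markers summed to 7.77 to 31.9 CPM in the Saa1-high libraries, 0.867 to 9.80 in the other sh-Ctl libraries and 2.58 to 28.2 in sh-Acsf3. S100a8 and S100a9, the most abundant of them, were at 1.43 to 11.5 and 2.27 to 12.7 CPM in the Saa1-high libraries, Retnlg was at 0.306 to 2.65 CPM, against a median of 0 in the other sh-Ctl libraries. Cxcr2 was at 0 in all 4, and Ly6g and Mpo were at 0 in at least 1 of the 4. The 12 markers of Kupffer cells and macrophages summed to 289 to 550 CPM, 173 to 622 in the other sh-Ctl libraries and 237 to 652 in sh-Acsf3. The 9 adipocyte markers summed to 3258 to 4933, 2499 to 7041 and 2119 to 5900 CPM, nearly all of it Car3 (3253 to 4916 CPM in the Saa1-high libraries), which hepatocytes also express, so the sum does not measure adipocytes. The fat hormone gene Lep was at 0 in all libraries, and Adipoq, Plin1 and Retn had medians of 0 in both treatments. Cfd was at 0.613 to 5.50 CPM in the Saa1-high libraries, against a median of 0 in the other sh-Ctl libraries. The pancreas sum of the Saa1-high libraries was 10.7 to 35.3 CPM. The part of these cells in the levels was not tested, and in bulk tissue more cells of a type and more RNA per cell cannot be told apart.

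Orm2 was high in a pair of further sh-Ctl libraries that were not Saa1-high. It was at 186 CPM in replicate 2 at ZT3 and 130.2 CPM in replicate 2 at ZT6, against 32.5 and 28.3 in the next library of each group. No sh-Acsf3 library passed 34.5 CPM.

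The comparison of treatments asks how the level of these genes differed between sh-Acsf3 and sh-Ctl, averaged over the 8 times. With all 64 libraries, 7 of the 10 genes passed the test as lower in sh-Acsf3 (edgeR quasi-likelihood, adjusted over 10097 genes) and none as higher. Over all tested genes 6.21% were lower and 8.26% higher. The genes were proposed with results of this contrast known, so nothing is read from the count. Their median difference was -0.64 (log2), against -0.01 over all tested genes.

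Without the Saa1-high libraries, 2 genes were lower and 2 higher in sh-Acsf3, and 6 passed in neither direction. Over all 10190 genes tested in that fit, 5.83% were lower and 8.28% higher. The median difference of the 10 genes became 0.11. At ZT0, ZT3, ZT6 and ZT21, the times with no Saa1-high library, 1 gene was higher and none lower by the edgeR test, against 3.63% and 1.6% of 9672 genes, and 3 genes had an unadjusted p under 0.05 in the lower direction and 2 in the higher. Both of these sets leave libraries out for their level of Saa1, which is one of the outcomes, so their values describe the other libraries and do not replace the full comparison.

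Saa1 was at 22.2 to 246.9 CPM with a median of 60.4 in sh-Acsf3, and at 19.1 to 250.9 with a median of 41.0 in the 28 other sh-Ctl libraries. The averaged difference was -1.53 ± 0.48 (log2, SE) with all libraries (edgeR adjusted p = 0.0225). It was 0.58 ± 0.24 without the Saa1-high libraries (adjusted p = 0.101) and 0.40 ± 0.33 at the times that have none (adjusted p = 0.604). Leaving out a single Saa1-high library ended the call, with an edgeR adjusted p of 0.0856 to 0.162, as did limma-voom, with a difference of -0.24 (adjusted p = 0.792).

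Saa2 was at 4.47 to 74.0 CPM with a median of 14.8 in sh-Acsf3, against the median of 8.01 in the 28 others. Its difference was -1.63 ± 0.55 with all libraries (edgeR adjusted p = 0.0364) and 0.73 ± 0.26 without the Saa1-high ones (adjusted p = 0.0566). Leaving out any 1 of the 4 brought the adjusted p to between 0.14 and 0.234, and leaving out replicate 1 at ZT6, 2 at ZT0, or 3 at ZT3 or ZT21 of sh-Ctl brought it to between 0.0515 and 0.0661. With limma-voom the Saa2 difference was -0.18 (adjusted p = 0.88).

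Saa3 was at 11.5 to 61.6 CPM with a median of 34.4 in sh-Acsf3, against 11.4 to 42.3 with a median of 23.9 in the 28 others. With all libraries the difference was -1.09 ± 0.38 (edgeR adjusted p = 0.0464), a call so near the threshold that leaving out any 1 of 39 of the 64 libraries ended it. With limma-voom it was -0.19 (adjusted p = 0.788). Without the Saa1-high libraries Saa3 was higher in sh-Acsf3, by 0.46 ± 0.12 (adjusted p = 0.00818). At the times with no Saa1-high library the difference was of the same size, 0.46 ± 0.16, and did not pass (adjusted p = 0.111). The macrophage marker sum had a median of 409 CPM in sh-Acsf3 and 289 in the 28 other sh-Ctl libraries, and its part in the Saa3 difference was not tested.

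Saa4 was lower in sh-Acsf3 by -0.40 ± 0.12 on average (edgeR adjusted p = 0.0206). The single-time differences were below 0 at all 8 times with all libraries, but at ZT15 the value was -0.21 with them and 0.25 without the Saa1-high one, and neither passed. Its medians were 80.5 CPM in sh-Acsf3 and 93.5 in the 28 other sh-Ctl libraries. Without the Saa1-high libraries the difference was -0.16 ± 0.08 and did not pass (adjusted p = 0.226). Leaving out any single library kept the call, and leaving out replicate number 1, 2 or 3 ended it (edgeR adjusted p = 0.126, 0.104 and 0.0673), as did scaling by library size only (adjusted p = 0.0586).

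Orm2 had the largest difference of the 10, -2.52 ± 0.56 (edgeR adjusted p = 0.00101). It was at 5.97 to 34.5 CPM with a median of 18.8 in sh-Acsf3, and without the Saa1-high libraries the difference was 0.12 ± 0.24 (adjusted p = 0.812). Without replicate number 2, which takes out 3 of the 4 Saa1-high libraries, it was -0.13 (adjusted p = 0.871). With limma-voom it was -0.64 and did not pass (adjusted p = 0.495). Orm1, which did not pass, was at 282 to 895 CPM with a median of 593 in sh-Acsf3. Its difference was -0.29 ± 0.15 with all libraries (adjusted p = 0.199) and 0.10 ± 0.07 without (adjusted p = 0.32). Hp did not pass either, with a median of 1468 CPM in sh-Acsf3 and 1430.5 in the 28 others and differences of -0.38 ± 0.14 (adjusted p = 0.0543) and -0.03 ± 0.06 (adjusted p = 0.797). With all libraries Hp lay so near the threshold that leaving out any 1 of 14 libraries, or testing with DESeq2 (adjusted p = 0.0435), brought it past.

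Lcn2 did not pass with all libraries and was higher in sh-Acsf3 without the Saa1-high ones. It was at 1.21 to 11.1 CPM with a median of 5.11 in sh-Acsf3, on 525 UMIs in all, and at 0.291 to 7.48 with a median of 2.31 in the 28 others, on 223 UMIs. The ranges overlap, and both groups are held by few UMIs per library. The difference was -0.78 ± 0.53 with all libraries (edgeR adjusted p = 0.374), 1.28 ± 0.18 without the Saa1-high libraries (adjusted p = 2.23e-07) and 1.05 ± 0.25 at the times that have none (adjusted p = 0.00812). With no filter on low counts and all libraries it was -0.80 and passed as lower, in a fit that did not use each gene's own spread, as set out in the closing section. At ZT0 the sh-Acsf3 libraries were at 3.92, 6.96, 6.64 and 8.51 CPM and the sh-Ctl libraries at 2.51, 2.46, 1.75 and 1.09, with no overlap. The sh-Ctl values rest on 3 to 8 UMIs each. The share of all genes that separate in this way at ZT0 was not taken, so nothing is read from the separation. The difference at ZT0 did not pass with all libraries (edgeR adjusted p = 0.838) or without the Saa1-high ones (0.0797). At ZT3 the groups overlap, with sh-Acsf3 at 4.34 to 11.1 CPM and sh-Ctl at 3.00 to 7.48.

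Of the 13 neutrophil markers, only S100a8 and S100a9 passed the filter on low counts. With all libraries neither differed by the test, at 0.58 (edgeR adjusted p = 0.236) and 0.28 (adjusted p = 0.672). Without the Saa1-high libraries S100a8 was higher in sh-Acsf3 by 1.35 (edgeR adjusted p = 0.000168), with medians of 1.86 and 0.839 CPM, and S100a9 by 0.99 (adjusted p = 0.011), with medians of 2.34 and 1.14. The summed list had a median of 5.95 CPM in sh-Acsf3 and 2.86 in the 28 others. Of the other 11 markers only Csf3r had a median above 0 in either group, at 0.674 and 0.639 CPM. Their part in the Lcn2 difference was not tested.

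Lbp and Itih4 were lower in sh-Acsf3 with and without the Saa1-high libraries. Lbp was at 28.6 to 74.5 CPM with a median of 49.8 in sh-Acsf3, against 44.7 to 96.8 with a median of 61.1 in the 28 others. It was lower at all 8 times, by -0.47 ± 0.09 on average (edgeR adjusted p = 4.6e-05) and by -0.37 ± 0.07 without the Saa1-high libraries (adjusted p = 3.66e-05). At the times with no Saa1-high library the value was -0.26 ± 0.09 and did not pass (adjusted p = 0.0724).

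Itih4 was at 622 to 1083 CPM with a median of 827 in sh-Acsf3, against a median of 917 in the 28 others. The difference was -0.50 ± 0.13 with all libraries (edgeR adjusted p = 0.00432) and -0.17 ± 0.05 without the Saa1-high ones (adjusted p = 0.0141). It was -0.16 ± 0.07 at the times with none of them (adjusted p = 0.218), and lower in sh-Acsf3 at all 8 times. Leaving out any single library kept the calls of Lbp and Itih4.

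**Figure D3:**
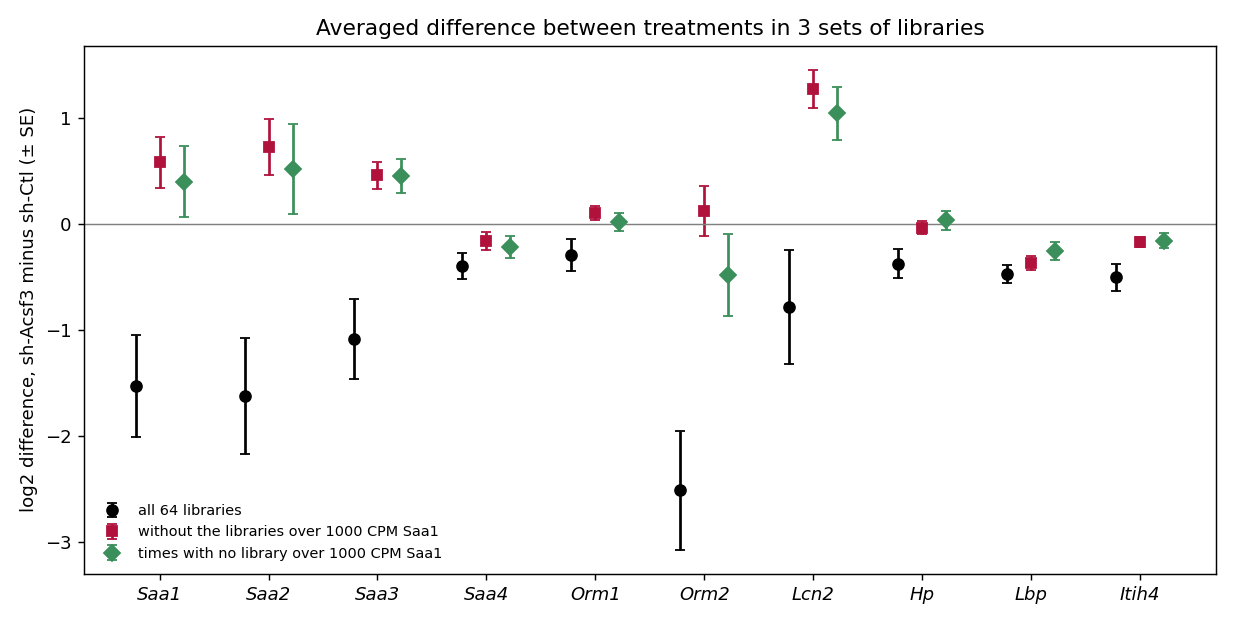
Averaged difference sh-Acsf3 minus sh-Ctl (log2, points with SE bars) of each gene with all 64 libraries, without the 4 Saa1-high libraries and at the 4 times that have none. Saa1, Saa2, Saa3, Orm1 and Lcn2 change sign between the first set and the other 2 sets, whereas Saa4, Lbp and Itih4 stay below 0 in all 3.

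At single times, 1 of 80 differences passed (edgeR, adjusted over genes within a time), against 0.0569% lower and 0.327% higher among all genes and times, and 0.238% lower and 1.16% higher at ZT12. This was Lbp at ZT12, where sh-Ctl was at 57.0, 135, 49.3 and 64.6 CPM in replicates 1 to 4 and sh-Acsf3 at 31.1, 46.7, 50.0 and 28.6. The groups overlap slightly. The difference was -0.96 ± 0.25 (edgeR adjusted p = 0.0258), and -0.54 with an adjusted p of 0.284 without the sh-Ctl library at 135 CPM, which is Saa1-high. It also ended, with an adjusted p of 0.215 or 0.0957, without sh-Acsf3 replicate 1, whose Acsf3 level lay inside the sh-Ctl range, or replicate 4. The edgeR test that the 8 differences are equal passed for none of the 10, nor for any tested gene (0%). With all libraries 3 of the 10 had an unadjusted p under 0.05, and without the Saa1-high libraries 0 had.

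Daily rhythm was tested with a 24 h cosine in each treatment. No sh-Acsf3 library was Saa1-high, but the genes were chosen with treatment differences known and the fit shares its estimate of the spread over both treatments. 2 of the 10 genes were rhythmic in sh-Acsf3 (edgeR, adjusted over all genes), against 19.6% of all tested genes. A share this close to the background says nothing particular about the 10, and the 2 genes are given for their own values. In the fit without the Saa1-high libraries the same 2 passed in sh-Acsf3 (adjusted p = 2.04e-05 for Saa4 and 0.00208 for Lbp), against 19.5% of all genes.

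Saa4, the constitutive form, had its fitted peak between ZT15 and ZT18 in both treatments. In sh-Acsf3 it was at 54.1, 69.2, 50.2 and 81.3 CPM at ZT6 and at 156, 148, 104 and 114 at ZT15. These are the times of its lowest and highest mean, so their lack of overlap is a description and no test. Its amplitude was 0.45 ± 0.08 (log2, SE, n = 32), a peak to trough fold of 1.88, with the peak at ZT17.4 ± 0.69 h (edgeR adjusted p = 0.00662). In the 28 other sh-Ctl libraries the amplitude was 0.33 ± 0.09 with the peak at ZT17.5 ± 0.98 h (adjusted p = 0.0054). The difference of the rhythms did not pass (edgeR adjusted p = 0.9998 without the Saa1-high libraries). Without replicate number 3 the adjusted p in sh-Acsf3 was 0.0903. Without replicate number 2, which leaves the Saa1-high ZT9 library in, the edgeR adjusted p in sh-Ctl was 0.177.

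Lbp peaked early in the ZT day. In sh-Acsf3 its amplitude was 0.29 ± 0.07 (log2, SE, n = 32), with the peak at ZT3.64 ± 0.93 h (edgeR adjusted p = 0.0364). The group means were 61.6 ± 3.75 CPM at ZT3 and 39.1 ± 10.8 at ZT12 (SD, n = 4 each). In the 28 other sh-Ctl libraries the amplitude was 0.17 ± 0.07 with a peak at ZT4.27 ± 1.56 h and did not pass (adjusted p = 0.191). Without replicate number 2, 3 or 4 the sh-Acsf3 call was lost, with an edgeR adjusted p of 0.0735, 0.128 and 0.159. It was also lost with no filter (0.0823), without the libraries with pancreas RNA (0.0598) and with added 12 h cosines (0.122).

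In sh-Ctl the rhythm calls turned on single libraries. With all 32 libraries 9 of the 10 genes passed, all but Orm1, against 19.4% of all genes, and all but Lbp peaked between ZT11.4 and ZT15.9, among the times of the Saa1-high libraries. Without those 4, Saa4, Orm2 and Lcn2 passed, against 17.9% of all genes. Orm2 then had an amplitude of 0.74 ± 0.26 and a peak at ZT2.77 ± 1.35 h (edgeR adjusted p = 0.000214), and Lcn2 0.55 ± 0.17 and ZT3.44 ± 1.18 h (adjusted p = 0.00321). Without the pair of ZT3 and ZT6 libraries over 100 CPM Orm2 as well, Orm2 was at 0.43 ± 0.14 (adjusted p = 0.0692) and Lcn2 at 0.40 ± 0.16 (adjusted p = 0.0807), and Saa4 alone passed (adjusted p = 0.0045), against 15.3% of all genes. The difference of the rhythms between treatments passed for none of the 10 with all libraries (edgeR; 7 had an unadjusted p under 0.05) and for none without the Saa1-high ones (1 had), nor for any tested gene (0%).

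**Figure D4:**
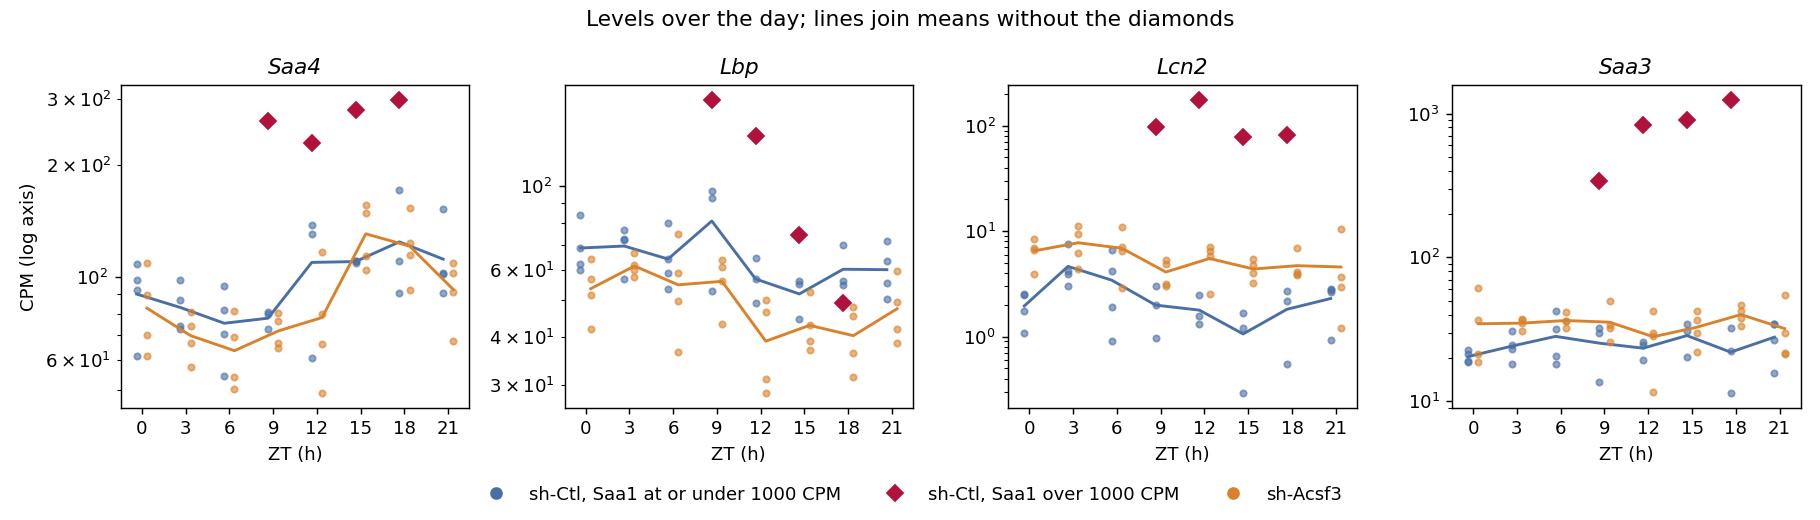
CPM (log axis) of Saa4, Lbp, Lcn2 and Saa3 against ZT in hours, with 1 point per library and lines through the means of each treatment without the 4 Saa1-high libraries (red diamonds). The lines of Saa4 peak at ZT15 in sh-Acsf3 and at ZT18 in sh-Ctl, and the sh-Acsf3 line lies below sh-Ctl for Lbp and above it for Lcn2 and Saa3 at all 8 times.

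Some of the genes varied much more between libraries of 1 group than most genes. The SD of log2 CPM around the group means was 0.90 for Saa1 and 0.92 for Saa2 over the 32 sh-Acsf3 libraries, and 0.84 and 0.92 over the 28 other sh-Ctl libraries. The median over tested genes was 0.35 and 0.31. Orm2 had 0.54 in sh-Acsf3 and 1.00 in the 28, which include the ZT3 and ZT6 libraries at 186 and 130.2 CPM. Lcn2 had 0.59 and 0.64. Itih4 had 0.19 in both, and Hp 0.26 and 0.25, below the median over tested genes. That median was not matched for level, on which the SD also depends. Itih4 and Hp held at least 650 and 1316 UMIs in each sh-Acsf3 library, and Lcn2 held 1 to 59.

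Correlations between the genes were taken as Pearson's r of log2 CPM around group means. Saa1 and Saa2 had r = 0.92 over 32 sh-Acsf3 libraries and 0.78 over the 28 other sh-Ctl libraries, with the reservation on shared reads. Saa1 and Orm1 had 0.70 and 0.48, and Hp and Lbp 0.65 and 0.72. All 45 pairs were above 0 in sh-Acsf3, the lowest being Lcn2 and Itih4 at 0.08. Such a count was not taken over pairs of other genes, so nothing is read from it. In the 28 sh-Ctl libraries 13 of the 45 pairs were below 0, among them 6 of the pairs with Saa4 and the pair of Lcn2 and Lbp at -0.41. The values of a pair share library and depth: log2 total UMIs had an r of 0.51 with Saa1 and 0.61 with Itih4 in sh-Acsf3, and 0.32 and 0.03 in the 28 sh-Ctl libraries.

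**Figure D5:**
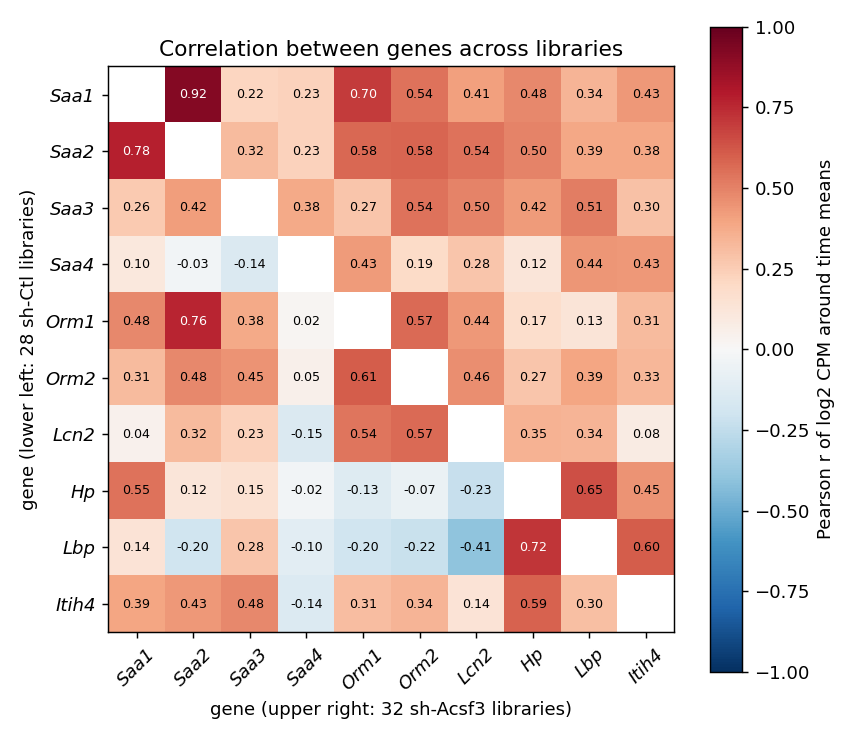
Pearson r of log2 CPM around group means between each pair of the 10 genes, over 32 sh-Acsf3 libraries above the diagonal and 28 sh-Ctl libraries below it. Saa1 and Saa2 are at 0.92 and 0.78, and Lcn2 and Lbp at 0.34 and -0.41.

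The genes outside the 10 whose pattern was most like Saa1 were sought over the 32 sh-Acsf3 libraries among 7765 genes whose mean level reached 5 CPM. Among them were Tmco1 (r = 0.84), Mttp (0.79), Cyp2a12 (0.76), Adipor2 (0.75), Lars2 (0.73), Mpdu1 (0.73) and Chchd3 (0.73). Over the 28 other sh-Ctl libraries the r of these 7 genes with Saa1 was 0.22 to 0.42. The median r with Saa1 over all 7765 genes was 0.003 in sh-Acsf3 and 0.014 in the 28 sh-Ctl libraries. These genes also followed depth, with an r of 0.33 to 0.77 with log2 total UMIs in sh-Acsf3. Tmco1 was at 145 to 189 CPM in the Saa1-high libraries and had a median of 166 in the other sh-Ctl libraries.

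Further acute-phase genes were read from a list of 27 positive acute-phase proteins outside the 10, of which 26 were tested. With all libraries 6 were lower and 2 higher in sh-Acsf3, with a median difference of -0.14, and without the Saa1-high libraries none of 25 was lower by the edgeR test and 6 were higher, with a median of -0.01. The 6.21% and 8.26% given above are the shares among all genes. Most lower calls of this and the following lists were lost with scaling by library size only, as given in the closing section. Of the 4 most abundant, Hpx, the haem carrier hemopexin, was at 12620 to 18028.0 CPM in the Saa1-high libraries and at 3138 to 6858 in the other sh-Ctl libraries. The serpin genes Serpina3k, Serpina1a and Serpina1b were at 11429 to 16320, 4173 to 4980 and 6193 to 7355 CPM, inside the range of the others.

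11 of the list, named here because of these values, lay above all other sh-Ctl libraries in each Saa1-high library, against 0.475% of all tested genes. They were Apcs, Fgl1, Serpina3n, Hpx, Cp, C3, C4b, Itih3, Steap4, Mt1 and Mt2. Apcs, which encodes serum amyloid P, was at 440 to 861 CPM against 50.2 to 186. Itih3, of the same family as Itih4, was at 844 to 1189 against 203 to 406, and C3, the central complement component, at 3288 to 4977 against 1683 to 3071. The metallothionein gene Mt1 was at 25.7 to 356 CPM against 3.04 to 24.8.

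Lower synthesis of the negative acute-phase proteins is the other side of the response. None of the 16 in the list lay below all other sh-Ctl libraries in the Saa1-high ones. Albumin (Alb) was at 33892 to 79676 CPM in the 4 and at 63473 to 99957 in the 28 others, with overlap. Ttr, the carrier of thyroid hormone, was at 7898 to 12472 against 7781 to 13429, and the lipoprotein genes Apoa1 and Apoa2 were at 11016 to 13310 and 7721 to 8699, inside the ranges of the others. Between treatments 3 of the 16 were lower and 2 higher in sh-Acsf3 (median -0.02), against 6.21% and 8.26% of all genes. Without the Saa1-high libraries 0 and 2 were, against 5.83% and 8.28% (median -0.01).

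The signalling genes upstream of the response were read next. In the IL-6, STAT3 and C/EBP list 1 of 16 tested genes was lower and 2 higher in sh-Acsf3, both with and without the Saa1-high libraries (medians 0.02 each), against 6.21% and 8.26% of all genes with all libraries, so the count is near the background. Cebpb, a C/EBP factor of the response, was at 179 to 463 CPM in the 4 and at 97.4 to 316 in the others, with overlap, and Lifr, a cytokine receptor, at 177 to 199 against 87.5 to 260. Nr3c1, the glucocorticoid receptor, was at 46.6 to 92.3 CPM against 51.8 to 103. Cebpa, the C/EBP factor of resting hepatocytes, was at 93.1 to 126 CPM against 68.2 to 122, and fell in sh-Acsf3 by 0.18 ± 0.05 on the log2 scale (edgeR adjusted p = 0.00413). The 2 higher genes, named here because of these values, were the less abundant Cebpd and Osmr. Cebpd rose by 0.36 ± 0.09 (edgeR adjusted p = 0.00255) and Osmr by 0.38 ± 0.13 (adjusted p = 0.0444).

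In the IL-1, TLR4 and NF-kB list 1 of 15 tested genes was lower and 2 higher (median -0.03), against 6.21% and 8.26% of all genes, so this count too is near the background. Without the Saa1-high libraries 1 and 2 of 16 were (median 0.0029). Il1rap, a subunit of the interleukin 1 receptor, had a median of 94.9 CPM in sh-Acsf3 and 109 in the 28 others and fell by 0.20 ± 0.04 on the log2 scale (edgeR adjusted p = 0.000965). With scaling by library size only, Cebpa and Il1rap did not both keep their lower call. The 2 higher genes, named here because of these values, were Nfkb2 and Tnfaip3, both of low level. Nfkb2 rose by 0.53 ± 0.17 (edgeR adjusted p = 0.0252) and Tnfaip3 by 1.01 ± 0.20 (adjusted p = 0.000126). Irak1, Chuk and Nfkbia, which relay or restrain NF-kB signals, were at 55.7 to 58.5, 45.7 to 78.5 and 33.6 to 57.6 CPM in the Saa1-high libraries, with other sh-Ctl medians of 58.7, 70.1 and 49.9. No gene of the signalling lists lay above all other sh-Ctl libraries in all 4.

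Receptors and carriers that handle the proteins were read last, with 8 of 15 tested, 0 lower and 1 higher in sh-Acsf3 (median 0.05), against 6.21% and 8.26% of all genes, and 0 and 1 of 7 without the Saa1-high libraries (median 0.08). Scarb1, a receptor for high-density lipoprotein, was at 105 to 124 CPM in the 4 and had a median of 98.2 in the others. Lcat, which esterifies cholesterol in lipoproteins, was at 86.7 to 146 CPM, with a median of 99.0 in the others. The averaged differences of Scarb1 and Lcat were 0.05 and 0.06, and neither passed.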

How the data were processed

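Gene expression was measured by BRB-seq, which barcodes bulk RNA and counts the 3' ends of transcripts, in 64 liver libraries. Per the labels, the deposited values are raw UMI counts per gene. Reads were aligned with STAR to GRCm38/mm10, per the submitters' processing notes. The versions, the annotation and the UMI settings are not given in the sources used here. Merging of near-identical reads or loss of multi-mapped ones would change the levels of Saa1, Saa2, Orm1 and Orm2.

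Tests used edgeR 4.0.16 in R 4.3.3. The filterByExpr function (minimum count 10, total 15, 16 groups) chose the tested genes, and libraries were scaled by TMM. A robust quasi-likelihood model with 16 group means (48 residual degrees of freedom, common biological coefficient of variation 0.189) gave the averaged, single-time and interaction tests. The SE of an edgeR difference was derived from its test, as its absolute value divided by the square root of the F statistic. A model with a mean, cosine and sine per treatment gave the rhythm tests. Benjamini-Hochberg adjustment ran over all tested genes, with a threshold of 0.05. Amplitudes and peaks came from least squares of log2 CPM (prior count 2). The tests were checked on simulated counts with the same spread for every gene and no outlying libraries. That check does not cover genes that vary as much as Saa1. Totals of 0.839 M to 9.35 M UMIs leave genes near 1 CPM with 1 to a few UMIs. No replicate was a copy of another (96 pairs, lowest chi-square per degree of freedom 2.54).

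The 10 genes, the lists, the limits and the tests were chosen with earlier results of these data known. Named genes were the 10, Acsf3, up to 4 most abundant tested genes per list and the 8 genes most like Saa1, with exceptions marked. Some genes under this rule are not reported here. The alternatives tried were DESeq2 1.42.0, voom from limma 3.58.1, scaling by RLE or by library size, no filter beyond 1 UMI, a mean of 5 CPM as the filter, a replicate block, an additive model, separate fits per time or treatment, added 12 h cosines, and leaving out replicate numbers, single libraries, Saa1-high libraries, their times, and libraries with pancreas RNA. Single-time fits without the Saa1-high libraries, and rhythm fits without libraries over 100 CPM Orm2, were added after the data had been seen. Promoter windows came from RefSeq (GRCm38.p6) and gene positions from GENCODE M21. Python 3.11.15 and matplotlib 3.10.9 drew the figures.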

Additional observations from a re-analysis of the deposited data

Results flagged for a closer look

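Each gene was looked at in each of the 16 groups of 4 libraries for a highest or lowest library far from the other 3. This marked 50 of 160 sets (31.25%), where chance marks about 1 in 20. The genes were selected on levels in single libraries and share these libraries, so nothing is read from that share. In 34 of these the library that stands apart is Saa1-high, and in 16 it is another. These 34 lay above the other 3 of their group for every gene but Lbp, and for Saa4 at ZT9 and ZT15 alone. Saa1 was at 3604 CPM in ZT9 replicate 1, 4204 CPM in ZT12 replicate 2, 2092 CPM in ZT15 replicate 2 and 2259 CPM in ZT18 replicate 2. Saa2 was at 1362 CPM in ZT9 replicate 1, 1481 CPM in ZT12 replicate 2, 533 CPM in ZT15 replicate 2 and 754 CPM in ZT18 replicate 2. Saa3 was at 338 CPM in ZT9 replicate 1, 834 CPM in ZT12 replicate 2, 901 CPM in ZT15 replicate 2 and 1250.1 CPM in ZT18 replicate 2. Saa4 was at 262 CPM in ZT9 replicate 1 and 279 CPM in ZT15 replicate 2. Orm1 was at 1642 CPM in ZT9 replicate 1, 2419 CPM in ZT12 replicate 2, 1866 CPM in ZT15 replicate 2 and 2206 CPM in ZT18 replicate 2. Orm2 was at 786 CPM in ZT9 replicate 1, 2334 CPM in ZT12 replicate 2, 1451 CPM in ZT15 replicate 2 and 2309 CPM in ZT18 replicate 2. Lcn2 was at 96.8 CPM in ZT9 replicate 1, 177 CPM in ZT12 replicate 2, 77.9 CPM in ZT15 replicate 2 and 81.7 CPM in ZT18 replicate 2. Hp was at 5093 CPM in ZT9 replicate 1, 6941 CPM in ZT12 replicate 2, 4769 CPM in ZT15 replicate 2 and 4352 CPM in ZT18 replicate 2. Itih4 was at 2753 CPM in ZT9 replicate 1, 4141 CPM in ZT12 replicate 2, 2979 CPM in ZT15 replicate 2 and 2362 CPM in ZT18 replicate 2. 

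The other 16 were in libraries that are not Saa1-high. For Saa1 these were sh-Ctl ZT0 replicate 1 (high, 31.8 against 23.4 CPM), sh-Ctl ZT21 replicate 3 (high, 144 against 52.9 CPM), sh-Acsf3 ZT0 replicate 3 (high, 247 against 51.3 CPM), sh-Acsf3 ZT18 replicate 2 (high, 181 against 64.2 CPM) and sh-Acsf3 ZT21 replicate 3 (high, 80.0 against 35.1 CPM). For Saa2 these were sh-Acsf3 ZT0 replicate 3 (high, 74 against 17.6 CPM), sh-Acsf3 ZT9 replicate 3 (high, 28.7 against 15.1 CPM), sh-Acsf3 ZT12 replicate 2 (high, 28.4 against 10.5 CPM), sh-Acsf3 ZT18 replicate 2 (high, 45.2 against 16.1 CPM) and sh-Acsf3 ZT21 replicate 3 (high, 31.3 against 8.53 CPM). For Orm2 these were sh-Ctl ZT3 replicate 2 (high, 186 against 32.5 CPM) and sh-Ctl ZT6 replicate 2 (high, 130.2 against 28.3 CPM). For Lcn2 these were sh-Ctl ZT21 replicate 4 (low, 0.93 against 2.63 CPM) and sh-Acsf3 ZT18 replicate 3 (high, 6.88 against 4.11 CPM). For Hp these were sh-Acsf3 ZT3 replicate 1 (low, 1363 against 1511 CPM) and sh-Acsf3 ZT18 replicate 1 (low, 1262 against 1763 CPM). The second value is the next library of the group. In sh-Acsf3, ZT0 replicate 3, ZT18 replicate 2 and ZT21 replicate 3 were marked for both Saa1 and Saa2, whose reads can be shared. The part of depth or of other cells in these values was not tested.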

How the results depend on the processing

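Scaling by RLE or library size alone kept the sign of all 10 averaged differences. Of the 10 genes, the 7 lower with all libraries were 10 with no filter, 5 each with library size only (Saa3 and Saa4 lost), DESeq2 and the additive model, 3 with limma-voom, 4 with the replicate block (Saa4, Orm2, Lbp and Itih4), 2 without the Saa1-high libraries, 0 at the times without them (edgeR) and 2 to 8 when 1 replicate number or library was left out, with 4 for each Saa1-high library. Replicate number 2 includes 3 of these 4. The 0 higher became 2 without the Saa1-high libraries and 1 at the times without them. Values that changed sign without the Saa1-high libraries were Saa1 0.58, Saa2 0.73, Saa3 0.46, Orm1 0.10, Orm2 0.12 and Lcn2 1.28, and at the times without them Saa1 0.40, Saa2 0.52, Saa3 0.46, Orm1 0.021, Lcn2 1.05 and Hp 0.036. Lcn2 was 0.44 with limma-voom. Leaving out 1 replicate number or library gave Saa3 -1.30 to 0.066, Orm1 -0.43 to 0.028 and Lcn2 -1.21 to 0.99, each above 0 only without replicate 2. DESeq2 gave no adjusted p for 4 of the 10 genes. Lower single-time calls, 1 with all libraries, were 35 with no filter, 3 with DESeq2, 0 with limma-voom, 0 without the Saa1-high libraries, 0 in fits on single times with or without them, and 0 to 2 leaving out 1 replicate or library. With no filter 4 single-time calls were higher and the interaction passed for 8, against 0 and 0. Those no-filter counts cannot be read as calls: in that edgeR fit all 23436 genes had an infinite prior degree of freedom, so a gene's own spread was not used, and the quasi-dispersion was 0.624 for Saa1 and 0.8 for Lcn2, where it was 43.0 and 19.9 with the filter. Lower calls in the lists, 11, were 1 with library size only, 7 with a mean CPM of at least 5, 7 with limma-voom, 2 without the Saa1-high libraries and 2 to 7 leaving out a replicate. Higher calls there, 9, were 5 to 11. Rhythm calls in sh-Acsf3, 2, were 1 with no filter, 1 without the libraries with pancreas RNA, 1 with 24 h and 12 h cosines and 0 to 2 leaving out a replicate. Those in sh-Ctl, 9, were 4 with DESeq2, 1 with limma-voom, 3 without the Saa1-high libraries, 1 without those over 100 CPM Orm2, 5 on sh-Ctl alone and 5 to 9 leaving out a replicate. For the other changes the cause was not tested. The labels do not say what same-numbered libraries of the 2 treatments share. Over 32 pairs of them r was -0.27 to 0.36 (median 0.02, 10 over 0.1), and 8 of 32 libraries correlated best with their own number. The replicate block left 4 of the 7 lower calls. No clear pairing was seen, but such a check cannot show that nothing was shared. Lcn2 rests on 1 to 31 UMIs per library outside the Saa1-high ones in sh-Ctl.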
